A study of Homo sapiens with 8 samples.

Results

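The integrin subunit genes named for study were ITGA2, ITGA3, ITGA5, ITGA6, ITGAV, ITGB1, ITGB2, ITGB4 and ITGB5, 9 in all. They were taken by name, through every probe set of the array annotated with exactly 1 gene symbol from that list. This gave 8 probe sets, 1 each for 8 genes, of 8746 probe sets that are not controls and 7713 genes named singly. ITGB1 had no probe set annotated with it alone and was not analysed here. ITGB2 lay too low to be tested, so 7 probe sets entered the tests among 6251. Signals are the deposited values on a linear scale, and testing required a signal over the array's 40th percentile on at least 2 arrays. Each array's 40th percentile of signal was taken, and the largest of these, 17.6, serves below as a floor that marks low signal.

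The study placed HSD17B14, which encodes a 17-beta-hydroxysteroid dehydrogenase that oxidises steroids such as estradiol, into breast cancer cell lines by transient transfection and measured messenger RNA on 8 Affymetrix arrays. The groups were ZR75-1 cells (ER + in the labels) with the HSD17B14 plasmid, ZR75-1 cells with a vector lacking the insert, SKBR3 cells (ER - in the labels) with the HSD17B14 plasmid, and SKBR3 cells with that vector, with 2 arrays in each. All cells, controls included, were grown in Optimem-I without phenol red containing 4% foetal bovine serum, received plasmid with FuGene-6 at 24 h after plating and were collected 48 h later. Each group stands for 1 cell line, and the share of cells that took up plasmid is not given in the sources used here. The labels call the arrays duplicates without saying whether each had its own culture, and the p-values therefore rest on a spread between arrays that may be technical.

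The labels were checked against defining genes. HSD17B14 had signals of 107.5 and 135.3 in ZR75-1 with HSD17B14, against 17.8 and 2.1 in ZR75-1 with vector. In the arrays labelled SKBR3 it had 650.7 and 743.6 with HSD17B14, against 2.0 and 4.2 with vector. ERBB2, the HER2 receptor gene that SKBR3 cells are known to carry in many copies, had only 25.9 to 46.8 on the arrays labelled SKBR3, below the 95.9 to 226 on the ZR75-1 arrays. Those arrays also carried the mesenchymal gene VIM at 3646 to 5326, against 0.4 to 25.7 in ZR75-1. They are therefore called SKBR3-labelled. ESR1 had 194.5 to 341.6 in ZR75-1 and 14.9 to 24.6 on the SKBR3-labelled arrays.

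Integrins are receptors made of an alpha and a beta subunit that span the cell membrane and tie the extracellular matrix to the cytoskeleton and to kinase signalling. The alpha subunit largely sets the ligand: ITGA3 and ITGA6 bind laminins, ITGA2 binds collagens, and ITGA5 and ITGAV bind fibronectin, vitronectin and other ligands through an RGD peptide. ITGB1 pairs with most of these alpha subunits, ITGB4 pairs with ITGA6 to build hemidesmosomes in epithelial cells, ITGB5 pairs with ITGAV, and ITGB2 belongs to leukocytes. In breast epithelium the laminin receptors anchor cells to the basement membrane.

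Promoter sequences are shown for the 3 subunits with a promoter entry that differed between the lines in a test, ITGA2, ITGA6 and ITGA5, and for ITGAV, which did not. Each is the 250 bases before the RefSeq start in GRCh38.p14, written 5′ to 3′ on the gene's strand, with capitals marking GC boxes (GGGCGG on either strand). ITGA2 lies at chr5:52989102-52989351 on the plus strand, ITGA6 at chr2:172427086-172427335 on the plus strand, ITGA5 at chr12:54419267-54419516 on the minus strand and ITGAV at chr2:186589806-186590055 on the plus strand.
ITGA2: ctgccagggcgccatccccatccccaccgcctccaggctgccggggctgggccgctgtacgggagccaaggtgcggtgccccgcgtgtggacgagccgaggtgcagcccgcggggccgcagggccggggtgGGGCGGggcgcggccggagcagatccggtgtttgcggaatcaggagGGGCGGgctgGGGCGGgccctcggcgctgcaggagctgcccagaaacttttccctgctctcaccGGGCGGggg
ITGA6: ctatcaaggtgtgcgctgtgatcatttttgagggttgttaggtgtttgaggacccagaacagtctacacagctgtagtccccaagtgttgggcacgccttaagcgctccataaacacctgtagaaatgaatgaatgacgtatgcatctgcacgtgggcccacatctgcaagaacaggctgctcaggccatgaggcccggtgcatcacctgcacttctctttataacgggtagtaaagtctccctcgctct
ITGA5: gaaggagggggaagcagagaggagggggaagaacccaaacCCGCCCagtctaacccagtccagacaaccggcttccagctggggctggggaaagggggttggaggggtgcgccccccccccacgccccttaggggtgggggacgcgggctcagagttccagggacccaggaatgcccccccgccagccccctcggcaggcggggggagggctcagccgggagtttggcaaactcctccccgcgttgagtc
ITGAV: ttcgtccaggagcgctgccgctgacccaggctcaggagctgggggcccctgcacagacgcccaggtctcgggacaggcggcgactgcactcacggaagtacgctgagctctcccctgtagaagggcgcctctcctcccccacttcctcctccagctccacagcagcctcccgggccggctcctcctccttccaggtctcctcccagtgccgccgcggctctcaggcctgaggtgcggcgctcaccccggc
The ITGA2 window held 4 GC boxes, the ITGA5 window held 1, and the ITGA6 and ITGAV windows held none. Of 35116 RefSeq promoter windows of the same length, 42.6% held at least 1 GC box. The AP-1 motif TGANTCA and the STAT motif TTCNNNGAA, searched on both strands, were in none of the 4 windows and in 6.57% of all windows each. Of the 9 genes, 6 had an entry in the promoter table; ITGA3, ITGB2 and ITGB4 did not. These matches describe the letters only.

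Between the lines, ITGA2, ITGA3 and ITGA6 were lower in ZR75-1 cells than in SKBR3-labelled cells on every array. ITGA5 was lower in ZR75-1 on HSD17B14 arrays at -1.93 ± 0.36 (log2 difference with SE, limma adjusted p = 0.0014). On vector arrays ITGA5 did not pass (adjusted p = 0.351). ITGB4 was lower in ZR75-1 on HSD17B14 arrays (adjusted p = 0.0447) and stood at 0.59 ± 0.28 (adjusted p = 0.115) on vector arrays. With the plasmid, ITGA3 was the 1 subunit that passed in ZR75-1 cells, at -1.89 ± 0.40 on the log2 scale (SE; adjusted p = 0.0449). That call was lost in 14 of 19 alternative settings, and without the array at 7.4, under the floor, the change was -1.18 (adjusted p = 0.14). No subunit passed in SKBR3-labelled cells. The subunits follow by ligand.

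ITGA3, a laminin-binding alpha subunit, had signals of 7.4 and 19.9 in ZR75-1 with HSD17B14, and 43.3 and 46.7 in ZR75-1 with vector. In SKBR3-labelled cells it had 155.0 and 156.1 with HSD17B14, and 150.9 and 122.2 with vector. All ZR75-1 arrays lay below all SKBR3-labelled arrays, and within ZR75-1 both HSD17B14 arrays lay below both vector arrays. The order by mean log2 signal was 3.60 ± 1.01 in ZR75-1 with HSD17B14, 5.49 ± 0.08 in ZR75-1 with vector, 7.09 ± 0.22 in SKBR3-labelled cells with vector and 7.28 ± 0.01 in SKBR3-labelled cells with HSD17B14 (SD, n = 2 each). The upper pair differed by 0.20 ± 0.40 (HSD17B14 minus vector, SE; adjusted p = 0.974), within the spread of the fit, although their arrays did not overlap.

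ITGA6, the laminin-binding partner of ITGB4, had 53.8 and 18.0 in ZR75-1 with HSD17B14, and 33.4 and 1.0 in ZR75-1 with vector. SKBR3-labelled cells had 170.3 and 209.4 with HSD17B14, and 174.4 and 180.2 with vector. The lines did not overlap, while the plasmid groups overlapped in both lines. The ZR75-1 vector array at 1.0 made that group's log2 mean 2.53 ± 3.58, the widest spread of any group of a tested subunit. The other group means were 4.96 ± 1.12 in ZR75-1 with HSD17B14, 7.56 ± 0.21 in SKBR3-labelled cells with HSD17B14 and 7.47 ± 0.03 in SKBR3-labelled cells with vector (SD, n = 2 each). Neighbours within a line in this order were not separated.

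ITGB4, the hemidesmosome beta subunit, had 41.8 and 40.2 in ZR75-1 with HSD17B14, and 102.2 and 87.6 in ZR75-1 with vector. The SKBR3-labelled arrays gave 73.0 and 70.2 with HSD17B14, and 77.3 and 50.9 with vector. ZR75-1 thus held both the lowest group, with HSD17B14, and the highest, with vector. The mean log2 signals were 5.36 ± 0.04 in ZR75-1 with HSD17B14, 5.97 ± 0.43 in SKBR3-labelled cells with vector, 6.16 ± 0.04 in SKBR3-labelled cells with HSD17B14 and 6.56 ± 0.16 in ZR75-1 with vector (SD, n = 2 each). The 2 SKBR3-labelled groups overlapped.

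ITGA2, a collagen-binding alpha subunit, had 30.7 and 50.8 in ZR75-1 with HSD17B14, and 18.7 and 29.4 in ZR75-1 with vector. On SKBR3-labelled arrays it had 101.4 and 85.8 with HSD17B14, and 75.7 and 137.8 with vector. Every ZR75-1 array lay below every SKBR3-labelled array. The plasmid groups did not overlap in ZR75-1, where HSD17B14 was the higher, but the log2 change of 0.75 ± 0.39 did not pass (SE; adjusted p = 0.339). In SKBR3-labelled cells the HSD17B14 arrays lay between the vector arrays. The order by mean log2 signal was 4.55 ± 0.46 in ZR75-1 with vector, 5.30 ± 0.51 in ZR75-1 with HSD17B14, 6.54 ± 0.17 in SKBR3-labelled cells with HSD17B14 and 6.67 ± 0.61 in SKBR3-labelled cells with vector (SD, n = 2 each).

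ITGA5, the main fibronectin-binding alpha subunit, had 25.4 and 25.8 in ZR75-1 with HSD17B14, and 41.3 and 59.3 in ZR75-1 with vector. In SKBR3-labelled cells it had 97.6 and 96.9 with HSD17B14, and 94.7 and 48.3 with vector. The lines overlapped at 1 point only, since the lower SKBR3-labelled vector array lay between the ZR75-1 vector arrays. The HSD17B14 arrays lay below both vector arrays in ZR75-1 and above both in SKBR3-labelled cells, but neither change passed (adjusted p = 0.188 and 0.794), and the change in SKBR3-labelled cells was 0.038 without vector replicate 2. The mean log2 signals were 4.68 ± 0.02 in ZR75-1 with HSD17B14, 5.63 ± 0.37 in ZR75-1 with vector, 6.08 ± 0.69 in SKBR3-labelled cells with vector and 6.60 ± 0.01 in SKBR3-labelled cells with HSD17B14 (SD, n = 2 each), and the middle pair overlapped.

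ITGAV, the alpha subunit of the vitronectin receptors, had 88.2 and 151.5 in ZR75-1 with HSD17B14, and 80.9 and 110.7 in ZR75-1 with vector. On SKBR3-labelled arrays its signals were 100 and 92.2 with HSD17B14, and 121.4 and 74.0 with vector. All 4 groups overlapped, with log2 means of 6.85 ± 0.55 in ZR75-1 with HSD17B14, 6.56 ± 0.32 in ZR75-1 with vector, 6.59 ± 0.08 in SKBR3-labelled cells with HSD17B14 and 6.57 ± 0.51 in SKBR3-labelled cells with vector (SD, n = 2 each). No neighbours in that order were separated.

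ITGB5, which pairs with ITGAV, had 34.9 and 41.6 in ZR75-1 with HSD17B14, and 40.6 and 32.6 in ZR75-1 with vector. SKBR3-labelled cells had 36.2 and 22.5 with HSD17B14, and 5.6 and 32.4 with vector. The lowest SKBR3-labelled vector array stood under the floor and gave that group a log2 mean of 3.75 ± 1.79. The other means were 5.25 ± 0.18 in ZR75-1 with HSD17B14, 5.19 ± 0.22 in ZR75-1 with vector and 4.84 ± 0.49 in SKBR3-labelled cells with HSD17B14 (SD, n = 2 each). Ranked by mean, neighbouring groups overlapped. On vector arrays both ZR75-1 arrays lay above both SKBR3-labelled arrays, the nearest at 32.6 and 32.4.

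ITGB2, the beta subunit of the leukocyte integrins, had 1.8 and 7.4 in ZR75-1 with HSD17B14, and 2.1 and 1.5 in ZR75-1 with vector. The SKBR3-labelled arrays gave 9.7 and 18.7 with HSD17B14, and 2.4 and 5.8 with vector. It lay under the floor on 7 of 8 arrays and above its own array's 40th percentile on 1, so no fold or test is given. Of 12 leukocyte markers, 5 lay under the floor on all 8 arrays, among them PTPRC, the common leukocyte antigen, at 0.9 to 16.2. Others stood higher: LCP1 had 36.1 to 67.1 over the 8 arrays. CORO1A had 95.4 to 142.4 in ZR75-1 and 2.4 to 7.8 in SKBR3-labelled cells, and LAPTM5 had 1.2 to 22.6 and 67.2 to 97.3. These were named after their values were seen.

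**Figure D1:**
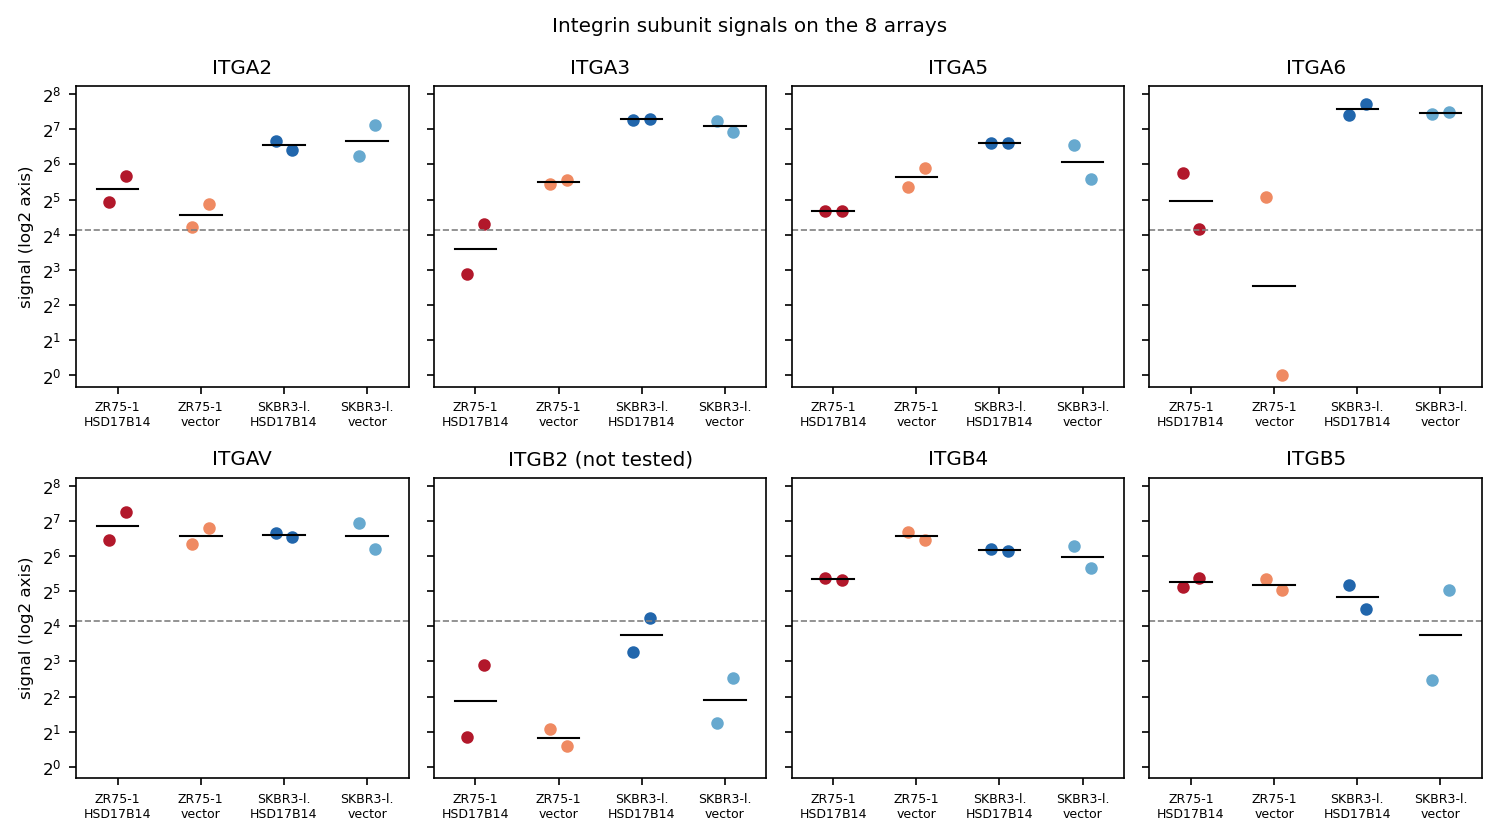
Signal of each integrin subunit on the 8 arrays, on a log2 axis, by line and plasmid (SKBR3-l. stands for SKBR3-labelled); points are arrays, black bars are means of the log2 values and the dashed line is the floor of 17.6. ITGA2, ITGA3 and ITGA6 lie lower on all 4 ZR75-1 arrays than on all 4 SKBR3-labelled arrays, and ITGB2 lies under the floor on 7 arrays.

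The first comparison asked which subunits differed between the lines when both carried HSD17B14. ZR75-1 cells had less ITGA3 by 12.8-fold, with a log2 difference of -3.68 ± 0.40 (SE, n = 2 per group; limma adjusted p = 3.17e-05). ITGA5 was 3.80-fold lower at -1.93 ± 0.36 (adjusted p = 0.0014), ITGA2 was 2.36-fold lower at -1.24 ± 0.39 (adjusted p = 0.028) and ITGB4 was 1.75-fold lower at -0.80 ± 0.28 (adjusted p = 0.0447). Of the 7 tested subunits 4 were called lower and 0 higher, beside 18.1% of all tested probe sets called lower, 15.1% called higher and 33.2% called either way. ITGA6 stood at -2.60 ± 1.15 (adjusted p = 0.109), ITGAV at 0.27 ± 0.31 (adjusted p = 0.559) and ITGB5 at 0.42 ± 0.70 (adjusted p = 0.702).

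ITGA3 and ITGA5 passed under all 19 alternative settings; ITGA3 stood at -2.97 without ZR75-1 HSD17B14 replicate 1, at -4.39 without replicate 2 and at -3.06 with signals raised to the floor. ITGA2 passed under 12 (adjusted p 0.00825 to 0.195) and ITGB4 under 9 (adjusted p 0.0204 to 0.201), losing the call without ZR75-1 HSD17B14 replicate 1 or either SKBR3-labelled HSD17B14 array, and ITGB4 also without ZR75-1 HSD17B14 replicate 2. ITGA6 was called under 6, among them without either ZR75-1 vector array (adjusted p = 0.00167 and 0.00102).

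Among the vector arrays the same question gave 3 subunits lower in ZR75-1 and 0 higher, beside 20.7% of all tested probe sets called lower, 19.6% called higher and 40.2% called either way. ITGA2 was 4.36-fold lower, with a log2 difference of -2.12 ± 0.39 (SE, n = 2 per group; limma adjusted p = 0.00103). ITGA3 was 3.02-fold lower at -1.59 ± 0.40 (adjusted p = 0.00761). ITGA6 differed by -4.94 ± 1.15 (adjusted p = 0.00484), a value that rests on the array at 1.0: without that array, ZR75-1 vector replicate 2, the difference was -2.41 (adjusted p = 0.00548), and with signals raised to the floor it was -2.87 (adjusted p = 0.011). The other subunits did not pass: ITGA5 stood at -0.45 ± 0.36 (adjusted p = 0.351) and ITGAV at -0.00 ± 0.31 (adjusted p = 0.996). ITGB4 stood at 0.59 ± 0.28 (adjusted p = 0.115), with both ZR75-1 arrays above both SKBR3-labelled arrays, and ITGB5 at 1.43 ± 0.70 (adjusted p = 0.128).

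ITGA2 was called under all 19 settings. On vector arrays the ratio of 3' to 5' actin signal differed between the lines without overlap. It was 2.0335 and 2.0185 in ZR75-1, against 3.6025 and 2.9959 in SKBR3-labelled cells. The same ratio for GAPDH was 1.0838 and 1.0389 in ZR75-1, against 0.9124 and 0.8678. On HSD17B14 arrays the lines overlapped in both ratios. Beyond the covariate fit that follows, the part of this split in the line differences was not tested. ITGA3 lost its call without SKBR3-labelled vector replicate 1 (adjusted p = 0.0545) and with the ratio of 3' to 5' actin signal added as a covariate (adjusted p = 0.314), and ITGA6 lost it with that covariate (adjusted p = 0.385) and without the mean-dependent prior (adjusted p = 0.0629). ITGB4 was called without SKBR3-labelled vector replicate 1 at 0.89 (adjusted p = 0.0356), and ITGB5 without replicate 2 of that group at 2.70 (adjusted p = 0.00421).

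Over the 4 arrays of each line, 3 of the 7 tested subunits (ITGA2, ITGA3 and ITGA6) lay lower on all ZR75-1 arrays and 0 lay higher, beside 22.7% of all tested probe sets lower and 19.8% higher without overlap. ITGA2 had at most 50.8 in ZR75-1 and at least 75.7 in SKBR3-labelled cells, and ITGA3 had at most 46.7 in ZR75-1 and at least 122.2 in SKBR3-labelled cells. The median log2 difference over the 7 subunits was -1.24 on HSD17B14 arrays and -0.45 on vector arrays, against -0.06 and -0.04 over all tested probe sets. The lines also differed in cell type markers. All 10 luminal epithelial markers were higher in ZR75-1 on every array, with sums of 20050 to 21540 with HSD17B14 and 21410 to 22850 with vector, against 5809 to 5838 with HSD17B14 and 5738 to 7354 with vector in SKBR3-labelled cells. Of 9 mesenchymal markers on the array, 7 were lower in ZR75-1 without overlap. The sum over all 9 was 664 to 1009 in ZR75-1 against 8333 to 12000 in SKBR3-labelled cells. In SKBR3-labelled cells VIM gave 3646 to 5326 of that sum and LGALS1 gave 3469 to 5185. The part of these markers in the integrin differences was not tested. In bulk RNA, fewer cells of a type and less RNA per cell cannot be told apart.

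**Figure D2:**
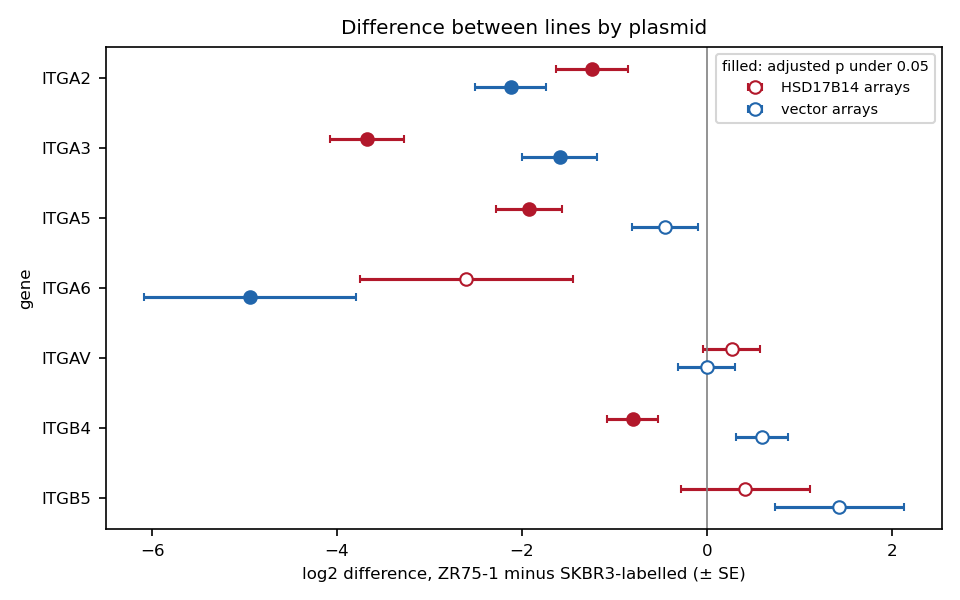
Log2 difference of each tested subunit, ZR75-1 minus SKBR3-labelled cells, on HSD17B14 arrays (red) and on vector arrays (blue), with SE from limma and n = 2 arrays per group; filled points had an adjusted p under 0.05. ITGA3 lies at -3.68 on HSD17B14 arrays and at -1.59 on vector arrays, while ITGAV lies at 0.27 and -0.00 on these sets.

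The plasmid comparison in ZR75-1 asked what HSD17B14 did to the subunits against vector in the ER + line. ITGA3 fell by 1.89 ± 0.40 on the log2 scale, a 3.71-fold change (SE, n = 2 per group; limma adjusted p = 0.0449). ITGB4, also of the laminin receptors, was 2.31-fold lower at -1.21 ± 0.28 and did not pass (adjusted p = 0.0581). ITGA5 stood at -0.95 ± 0.36 (adjusted p = 0.188), ITGA2 at 0.75 ± 0.39 (adjusted p = 0.339) and ITGA6 at 2.43 ± 1.15 (adjusted p = 0.292). ITGAV at 0.29 ± 0.31 (adjusted p = 0.691) and ITGB5 at 0.07 ± 0.70 (adjusted p = 0.977) were near 0. The count was 1 of 7 lower and 0 higher, beside 0.784% of all tested probe sets called lower, 0.736% called higher and 1.52% called either way. The groups did not overlap for 4 of 7 subunits, beside 47.0% of all tested probe sets. The median log2 change was 0.07 over the subunits and -0.04 over all tested probe sets.

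The ITGA3 call held under 5 of 19 alternative settings, with adjusted p from 0.0133 to 0.507 and a log2 change from -2.60 to -0.77, the last on the scale of log2 of the signal plus 32. With signals raised to the floor it was -1.27 (adjusted p = 0.043). Leaving out ZR75-1 HSD17B14 replicate 1, at 7.4, gave -1.18 (adjusted p = 0.14), and each array other than ZR75-1 HSD17B14 replicate 2 ended the call when left out. ITGB4 was called without either SKBR3-labelled vector array (adjusted p = 0.0392 and 0.0366), which enter only through the shared estimate of spread, and ITGA6 was called without ZR75-1 vector replicate 1 at 4.96 (adjusted p = 0.00379), which leaves as vector the array at 1.0, while without vector replicate 2 it stood at -0.10 (adjusted p = 0.944). Some array measures moved with the plasmid in ZR75-1. The ratio of 3' to 5' actin signal, a measure of RNA and labelling quality, was 2.83 and 2.66 with HSD17B14, against 2.03 and 2.02 with vector. The same ratio for GAPDH was 0.896 and 0.883 with HSD17B14, against 1.08 and 1.04 with vector. With the actin ratio as a covariate ITGA3 stood at -1.82 (adjusted p = 0.507), and 1 of 6251 probe sets was called. The summed signal of 12 leukocyte markers was 226.3 to 258.3 with HSD17B14, against 285.9 to 312.2 with vector, and that of 3 HER2 amplicon markers was 131.4 to 154.5, against 224.9 to 320.3. Of the leukocyte markers 5 lay under the floor on all 8 arrays, and 0 of 7 tested were called. Of the amplicon markers 0 of 3 were called. GRB7 had 18.8 and 8.9 with HSD17B14, against 67.7 and 53.4 with vector (log2 change -2.22, limma adjusted p = 0.142). ERBB2 had 110.9 and 95.9 with HSD17B14, against 226.0 and 141.2 with vector (-0.79, adjusted p = 0.203). STARD3 had 24.8 and 26.6 with HSD17B14, against 26.6 and 30.3 with vector (-0.14, adjusted p = 0.898). The part of these marker sums was not tested.

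**Figure D3:**
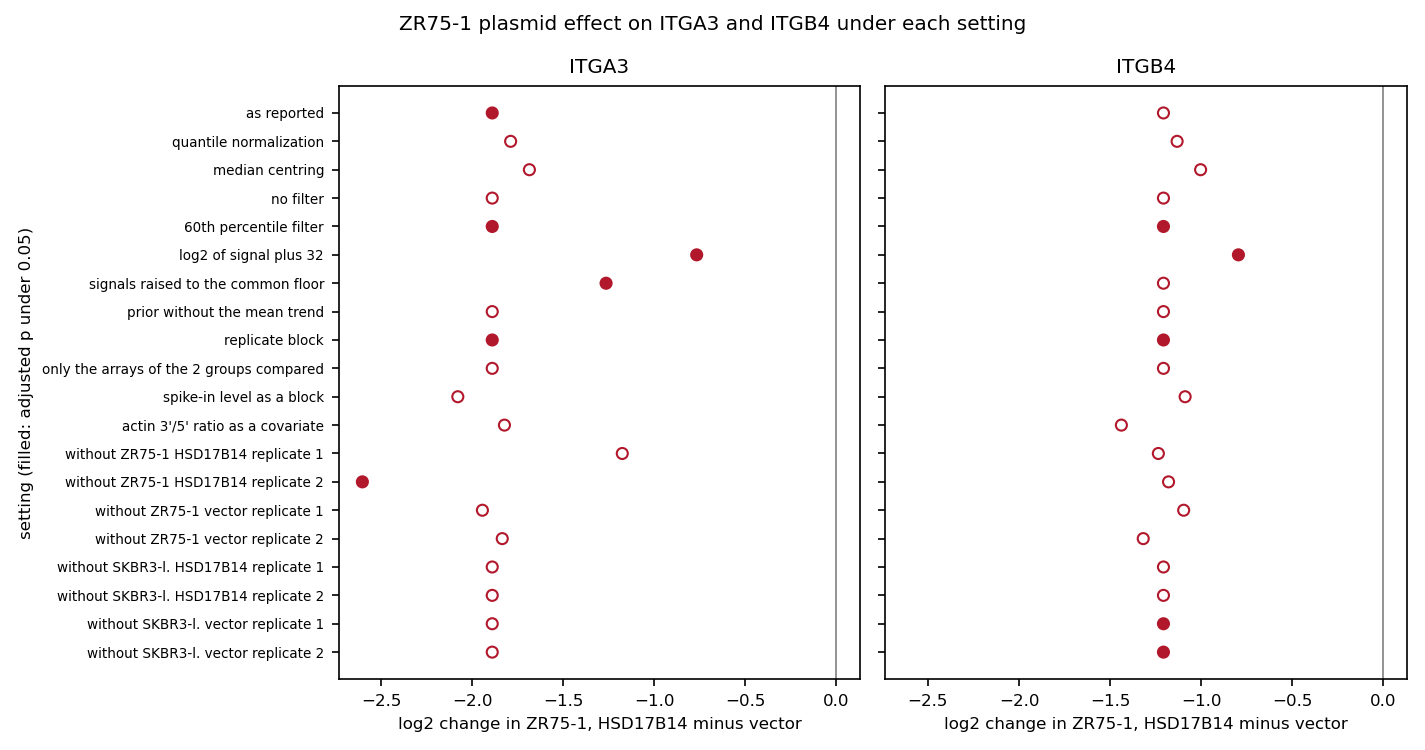
Log2 change of ITGA3 (left) and ITGB4 (right) in ZR75-1, HSD17B14 minus vector, as reported and under each of 19 alternative settings; filled points had an adjusted p under 0.05. Both subunits lie below 0 in every setting, and each passes in 5 of the 19 alternatives.

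In SKBR3-labelled cells no subunit passed by limma, beside 0.992% of all tested probe sets called after adjustment. At an unadjusted p under 0.05 the count was 0 of 7. The share of all tested probe sets at that unadjusted threshold is not given here for any comparison, so the unadjusted counts have no baseline. ITGA3 stood at 0.20 ± 0.40, ITGB4 at 0.19 ± 0.28, ITGA6 at 0.09 ± 1.15, ITGA2 at -0.13 ± 0.39, ITGA5 at 0.52 ± 0.36, ITGAV at 0.02 ± 0.31 and ITGB5 at 1.08 ± 0.70 (log2 change, HSD17B14 minus vector, SE, n = 2 per group; adjusted p 0.764 to 0.998). The groups did not overlap for ITGA3 and ITGA5, 2 of 7, beside 40.1% of all tested probe sets. None of the 7 was called under any setting tried.

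The ZR75-1 and SKBR3-labelled effects were set against each other in the same fit. ITGA3 had a difference of -2.09 ± 0.57 (ZR75-1 minus SKBR3-labelled effect, SE; adjusted p = 0.148), ITGB4 of -1.40 ± 0.39 (adjusted p = 0.165) and ITGA5 of -1.47 ± 0.50 (adjusted p = 0.262). These 3 had an unadjusted p under 0.05, a count that has no baseline here. After adjustment 0 of 7 passed, beside 0.624% of all tested probe sets passing after adjustment. The fall of ITGA3 in ZR75-1 is thus not shown to be particular to that line. Averaged over both lines, 0 of 7 subunits passed by limma, beside 1.5% of all tested probe sets, and 2 had an unadjusted p under 0.05: ITGA3 at -0.85 ± 0.28 (adjusted p = 0.194) and ITGB4 at -0.51 ± 0.20 (adjusted p = 0.266). Without ZR75-1 HSD17B14 replicate 2, ITGA3 passed for the difference at -2.80 (adjusted p = 0.0316) and for the average at -1.20 (adjusted p = 0.0193). Without ZR75-1 vector replicate 1, ITGA6 passed for both, at 4.87 (adjusted p = 0.0241) for the difference and 2.53 (adjusted p = 0.00651) for the average, against the array at 1.0 alone. Without vector replicate 2 these values were -0.19 and -0.0054.

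**Figure D4:**
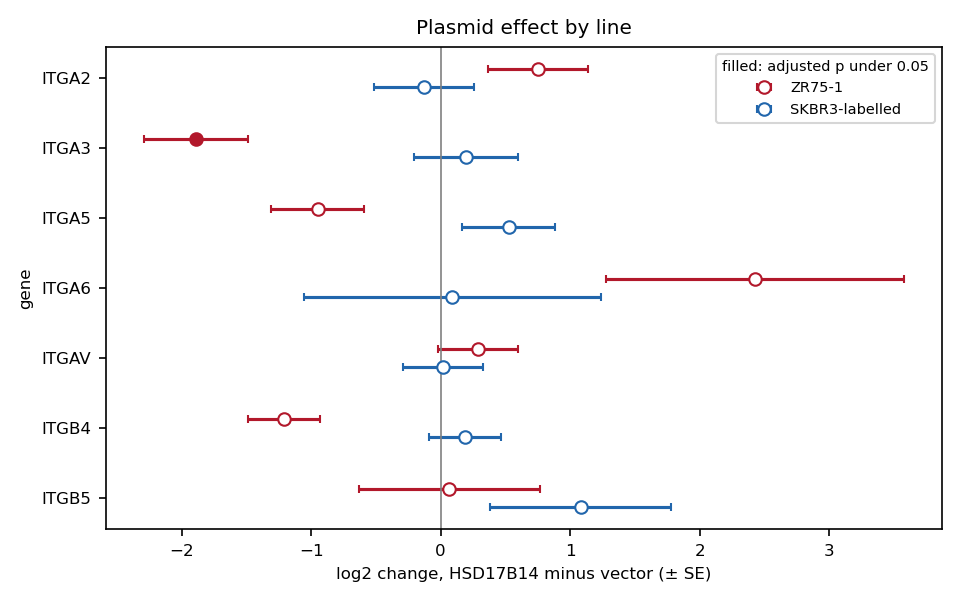
Log2 change of each tested subunit, HSD17B14 minus vector, in ZR75-1 (red) and in SKBR3-labelled cells (blue), with SE from limma and n = 2 arrays per group; the filled point had an adjusted p under 0.05. ITGA3 in ZR75-1, at -1.89, is the filled point, and in SKBR3-labelled cells ITGA3 lies at 0.20.

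The other genes of the pathway were described from 4 lists. Beside their plasmid counts, 1.52% of all tested probe sets were called in ZR75-1 and 0.992% in SKBR3-labelled cells. Of 17 other integrin subunits, 12 had a probe set and 7 were tested. With the plasmid 0 passed by limma in either line (0 of 7 in ZR75-1 and 1 of 7 in SKBR3-labelled cells had an unadjusted p under 0.05), and ITGA10, the first by statistic in ZR75-1, had 17.8 and 21.1 with HSD17B14, against 15 and 1.0 with vector, both under the floor (adjusted p = 0.325). ITGAE, which pairs with ITGB7 to bind E-cadherin, had 236.8 and 191.1 in ZR75-1 with HSD17B14 and 227.4 and 327.0 with vector, against 476.8 and 486.0 with HSD17B14 and 835.8 and 640.5 with vector in SKBR3-labelled cells. It was the only one of the 7 called between lines, lower in ZR75-1 by -1.18 ± 0.20 on HSD17B14 arrays (adjusted p = 0.000742) and by -1.42 ± 0.20 on vector arrays (adjusted p = 0.000155).

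Of 37 integrin ligands, 28 had a probe set and 22 were tested. None passed with the plasmid by limma in either line (0 of 22, with 2 in ZR75-1 and 0 in SKBR3-labelled cells at an unadjusted p under 0.05), and the median log2 changes were 0.10 in ZR75-1 and 0.11 in SKBR3-labelled cells. Between lines, 10 were lower and 1 was higher in ZR75-1 in each comparison, beside 18.1% of all tested probe sets lower and 15.1% higher on HSD17B14 arrays, and 20.7% lower and 19.6% higher on vector arrays. LAMB3, a chain of the epithelial laminin that ITGA3 and ITGA6 bind, had 25.2 and 30.5 in ZR75-1 with HSD17B14 and 39.4 and 41.2 with vector, against 333.7 and 346.8 with HSD17B14 and 351.8 and 287.9 with vector in SKBR3-labelled cells. Its log2 difference was -3.62 ± 0.21 on HSD17B14 arrays (adjusted p = 2.24e-07) and -2.98 ± 0.21 on vector arrays (adjusted p = 7.43e-07). The matricellular ligand CCN1 had 24.9 to 47.0 in ZR75-1 and 597.7 to 705.1 in SKBR3-labelled cells, a difference of -4.11 ± 0.24 on HSD17B14 arrays and -4.32 ± 0.24 on vector arrays. Its relative CCN2 lay under the floor on all 4 ZR75-1 arrays and at 367.7 to 571.9 in SKBR3-labelled cells, at least 26.5-fold lower in ZR75-1 on HSD17B14 arrays and at least 26.1-fold on vector arrays, against that floor. The basement membrane collagen COL4A1 also lay under the floor in ZR75-1 and was at least 6.67-fold lower on HSD17B14 arrays and 5.13-fold on vector arrays. The ligand higher in ZR75-1 was COL1A1, named after its values were seen, at 21.8 to 50.4 in ZR75-1 and 3.4 to 14.4 in SKBR3-labelled cells.

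Of 38 adaptor and focal adhesion genes, 26 had a probe set and 25 were tested. In ZR75-1, 1 fell with the plasmid and 0 rose, beside 0.784% of all tested probe sets called lower and 0.736% called higher. ACTN4, an actin crosslinker of the alpha-actinin family, had 172.7 and 141.7 with HSD17B14, against 451.9 and 414.2 with vector, a log2 change of -1.47 ± 0.22 (SE; adjusted p = 0.0129). On SKBR3-labelled arrays it had 275.9 and 252.2 with HSD17B14, and 296.5 and 178.4 with vector. The difference between these effects was -1.67 ± 0.31 (adjusted p = 0.0413). The call in ZR75-1 held under 13 of 19 settings (adjusted p 0.000981 to 0.278) and the difference under 6 of 18 (adjusted p 0.00535 to 0.936). Leaving out ZR75-1 HSD17B14 replicate 1, HSD17B14 replicate 2 or vector replicate 1 ended the call in ZR75-1 (adjusted p = 0.0511, 0.0635 and 0.0522). The next genes by statistic did not pass. ZYX (zyxin) had 4.9 and 27.9 with HSD17B14, against 62.4 and 77.4 with vector (adjusted p = 0.0734). TLN1, talin, which switches integrins on, lay under the floor on both HSD17B14 arrays at 10.9 and 6.9, against 31.1 and 33.7 with vector (adjusted p = 0.0971). The paxillin relative TGFB1I1 lay under the floor on all 4 ZR75-1 arrays, and no change is given. The list's median was -0.37 in ZR75-1 and 0.04 in SKBR3-labelled cells, where 0 of 25 passed and 1 had an unadjusted p under 0.05.

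Between lines, 9 adaptor genes were lower and 1 was higher in ZR75-1 on HSD17B14 arrays, and 7 were lower and 4 higher on vector arrays, beside the same shares of all tested probe sets (18.1% lower and 15.1% higher with HSD17B14, 20.7% and 19.6% with vector). ACTN1, the second alpha-actinin of the list, had 151.3 to 220.8 in ZR75-1 and 662.2 to 721.9 in SKBR3-labelled cells, a log2 difference of -1.95 ± 0.16 on HSD17B14 arrays (adjusted p = 4.3e-06) and -1.80 ± 0.16 on vector arrays (adjusted p = 5.67e-06). ILK, the integrin-linked kinase, had 101.9 to 162.0 in ZR75-1 and 256.1 to 370.8 in SKBR3-labelled cells. LPXN had 4.0 to 35.1 in ZR75-1, under the floor on 2 arrays, and 274.1 to 297.7 in SKBR3-labelled cells. Its log2 difference was -4.92 ± 0.69 on HSD17B14 arrays (adjusted p = 0.000183) and -3.99 ± 0.69 on vector arrays (adjusted p = 0.00068). TGFB1I1 had 2.1 to 17.4 in ZR75-1 and 97.2 to 109.1 in SKBR3-labelled cells. Against the floor it was at least 5.85-fold lower in ZR75-1 on HSD17B14 arrays and 5.6-fold on vector arrays. ITGB1BP1, which binds the tail of ITGB1, had 133.2 to 217.7 in ZR75-1 and 369.5 to 459.6 in SKBR3-labelled cells, and the tensin TNS3 had 54.4 to 110.8 in ZR75-1 and 263.2 to 286.8 in SKBR3-labelled cells. ACTN4 was lower in ZR75-1 on HSD17B14 arrays at -0.75 ± 0.22 (adjusted p = 0.0199) and higher on vector arrays at 0.91 ± 0.22 (adjusted p = 0.00589). ARHGEF7 was higher on both sets of arrays and CSK and PARVB on vector arrays. These 3, and ACTN4 between lines, were named after their values were seen.

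Of 13 membrane partner and hemidesmosome genes, 12 had a probe set and all 12 were tested. In ZR75-1, 2 fell with the plasmid and 0 rose, beside 0.784% of all tested probe sets called lower and 0.736% called higher. The tetraspanin CD81 had 381.7 and 292.4 with HSD17B14, against 761.5 and 666.7 with vector, a log2 change of -1.09 ± 0.17 (SE; adjusted p = 0.0147). BSG, basigin, had 231.4 and 160.2 with HSD17B14, against 422.7 and 339.3 with vector, at -0.98 ± 0.21 (adjusted p = 0.0498). CD81 was called under 14 of 19 settings (adjusted p 0.00162 to 0.344) and not without ZR75-1 HSD17B14 replicate 2 or vector replicate 1 (adjusted p = 0.0693 and 0.0552). BSG was called under 6 of 19 (adjusted p 0.0122 to 0.507), and leaving out any ZR75-1 array or either SKBR3-labelled HSD17B14 array ended its call. In SKBR3-labelled cells 0 of 12 passed, with 3 at an unadjusted p under 0.05, and CD81 stood at 0.20 ± 0.17 there (adjusted p = 0.874). The difference of effects passed for CD81 at -1.29 ± 0.24 (adjusted p = 0.0375) and held under 4 of 18 settings, while BSG stood at -1.18 ± 0.30 (adjusted p = 0.135).

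Between lines, 5 membrane partner genes were higher and 4 lower in ZR75-1 on HSD17B14 arrays, and 5 were higher and 2 lower on vector arrays, beside 15.1% higher and 18.1% lower, and 19.6% higher and 20.7% lower, of all tested probe sets on these sets of arrays. The hyaluronan receptor CD44 had 13.2 to 26.2 in ZR75-1 and 503.8 to 618.6 in SKBR3-labelled cells, a log2 difference of -5.21 ± 0.27 on HSD17B14 arrays (adjusted p = 1.1e-07) and -4.71 ± 0.27 on vector arrays (adjusted p = 1.98e-07). In ZR75-1, 1 of 2 arrays of each group lay under the floor, and with signals raised to the floor the differences were -5.00 on HSD17B14 arrays and -4.64 on vector arrays. The tetraspanin CD9 ran the other way, with 583.8 to 783.2 in ZR75-1 and 172.7 to 345.0 in SKBR3-labelled cells. SLC3A2, the CD98 heavy chain that binds integrin beta tails, had 263.4 to 400.0 in ZR75-1 and 100.9 to 121.3 in SKBR3-labelled cells. CD81, BSG and CD47 were also higher in ZR75-1 on both sets of arrays, and PLAUR was lower on both. CD151 and DST were lower on HSD17B14 arrays. CD47, PLAUR, CD151 and DST, and BSG on HSD17B14 arrays, were named after their values were seen.

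**Figure D5:**
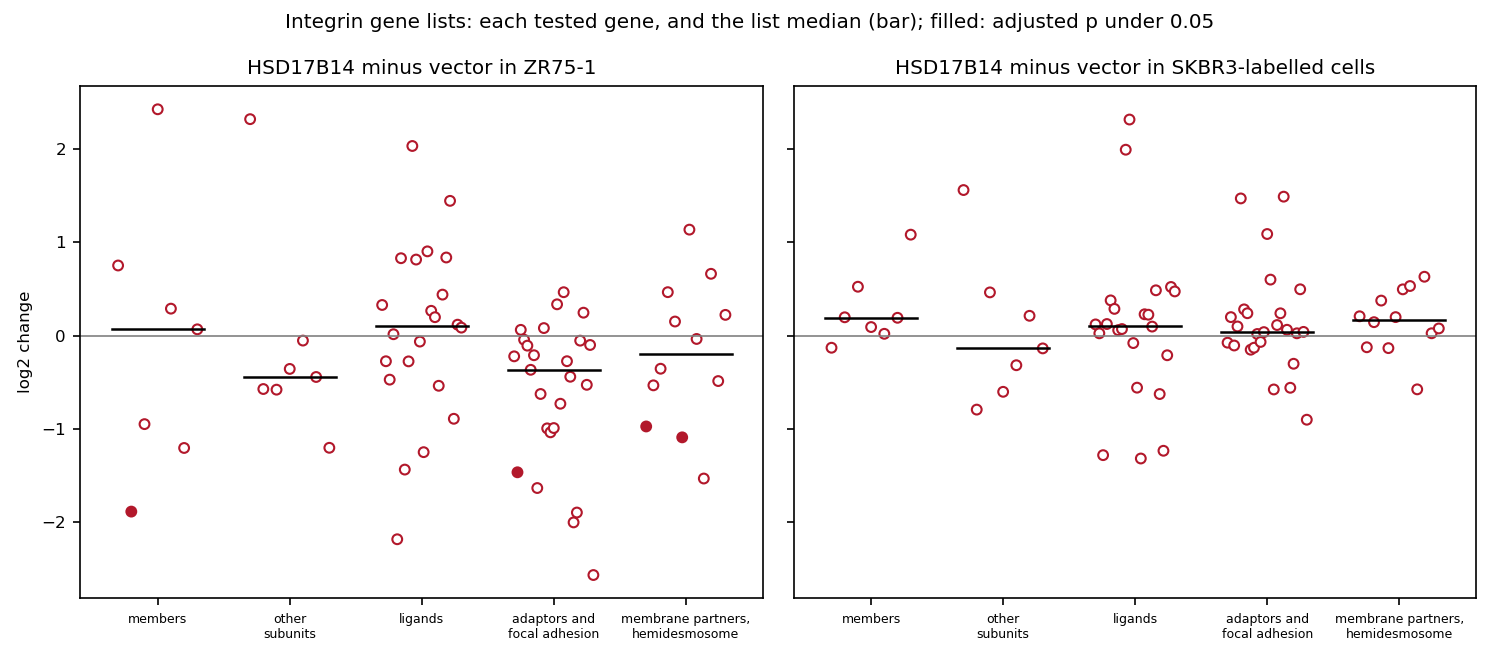
Log2 change of each tested gene of the integrin lists, HSD17B14 minus vector, in ZR75-1 (left) and in SKBR3-labelled cells (right); bars are list medians and filled points had an adjusted p under 0.05. In ZR75-1 the filled points are ITGA3, ACTN4, CD81 and BSG, all below 0, and in SKBR3-labelled cells none is filled.

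The likeness of patterns was measured by Pearson's r of log2 signals over the 8 arrays, which share lines and plasmids, and is a description. ITGB4 was most like ACTN4 (r = 0.976, and 0.993 with each line's mean removed), then NFKB2 (0.962) and the pyruvate kinase gene PKM (0.945). ITGA3, with 1 ZR75-1 HSD17B14 array at 7.4, was most like the metalloproteinase inhibitor TIMP3 (0.989), then ZNF185 (0.987) and GPSM3 (0.986). ITGA6, with 1 ZR75-1 vector array at 1.0, was most like PLAAT3 (0.994), TLR2 (0.982) and CRLF3 (0.980). ITGA2 was most like CETN3 (0.987), SELENOF (0.985) and BTBD1 (0.981). ITGA5 was most like GABARAP (0.981), IFNGR2 (0.969) and FXYD5 (0.959). ITGB5, with 1 SKBR3-labelled vector array at 5.6, was most like DAZAP2 (0.990), B3GALT4 (0.980) and ZNF350 (0.965). ITGAV had the weakest likeness of the 7, with VAX2 (0.868), RPN1 (0.865) and POLQ (0.854).

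Among the subunits themselves, with each line's mean removed, ITGA3 and ITGB4 had an r of 0.835, ITGA5 and ITGB4 of 0.85, and ITGA3 and ITGA5 of 0.723 over the 8 arrays. These are the 3 subunits with the lowest log2 changes in ZR75-1. ITGA2 and ITGB4 had -0.811. ITGB4 and its partner ITGA6 had -0.399, and ITGAV and its partner ITGB5 had -0.424. ITGA3, ITGA6 and ITGB5 each had 1 array under the floor, at 7.4, 1.0 and 5.6, below the rest of its line. The weight of these arrays in r was not tested, so the signs for the partners and the r values of ITGA3 are not read further.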

How the data were processed

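Total RNA (5 ug) from 8 samples was hybridised to HG-Focus arrays. The authors deposited 1 linear signal intensity per probe set and array, for which the submitters' processing notes name MAS5 (version not stated); each array has a trimmed mean of 100.1 after the outer 2% of probe sets at either end are dropped. The table holds 8793 probe sets, of which 47 controls were left out; 7840 carry 1 gene symbol, 388 several and 518 none here. Intensities under 1 were raised to 1 and log2 was taken without re-centring, since array medians differed by 0.36. All 8 arrays entered 1 fit of the 4 groups in limma 3.58.1 (R 4.3.3), with a mean-dependent prior, and Benjamini-Hochberg adjustment ran over all 6251 probe sets tested, with calls under 0.05. Errors after a log2 change are limma's standard errors. Replicate arrays correlated at 0.888 to 0.960, and the number of arrays limits the precision. Python 3.11.15 and matplotlib 3.10.9 made tables and figures.

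Genes named are all subunits, up to 4 genes per list and comparison by absolute moderated t, the 3 genes most like each subunit over the arrays, HSD17B14, ERBB2 and ESR1; VIM and PTPRC, from the marker lists, were added after their values were seen, and other exceptions are said where they occur. A gene of a list was taken by its probe set of highest mean log2 signal. The subunits, lists and tests were chosen with earlier results of these data known. Platform annotation can be old. The model was tested on simulated data, but no result of that test is given here, so it does not bear on single calls. Alternatives were no filter or one at the 60th percentile, median centring or quantile normalization, log2 of the signal plus 32, signals raised to the floor, a prior without the mean trend, the replicate block, only the groups compared, the spike-in level or the actin ratio as a covariate, and each array left out.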

Additional observations from a re-analysis of the deposited data

Results flagged for a closer look

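For ITGA3 and ITGA5 both HSD17B14 arrays lay below both vector arrays in ZR75-1 and above both in SKBR3-labelled cells. Such a lack of overlap was seen for 47.0% of all tested probe sets in ZR75-1 and 40.1% in SKBR3-labelled cells. The changes in SKBR3-labelled cells did not pass (0.20 for ITGA3, adjusted p = 0.974, and 0.52 for ITGA5, adjusted p = 0.794), and without SKBR3-labelled vector replicate 2 they were 0.044 for ITGA3 and 0.038 for ITGA5. On the log2 scale the ZR75-1 effect minus the SKBR3-labelled effect was -2.09 for ITGA3 and -1.47 for ITGA5. The fit tested these differences, and neither passed (limma adjusted p = 0.148 and 0.262; unadjusted p = 0.00345 and 0.0134). Groups of 2 arrays were too small to be screened for outlying arrays.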

How the results depend on the processing

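Of the 7 tested subunits, 1 was called for the plasmid in ZR75-1. This count was 0 under quantile normalization, median centring, no filter, the prior without the mean trend, the fit of only the arrays compared, the spike-in block and the actin covariate, 2 under the 60th percentile filter and under log2 of the signal plus 32, 3 under the replicate block, and 0 to 1 with 1 array left out. The 4 called between lines on HSD17B14 arrays became 2 under quantile normalization, median centring and the prior without the mean trend, and 2 to 5 with 1 array left out. The 3 called on vector arrays became 1 under the actin covariate. The averaged effect and the difference of effects, with 0 called, had 0 to 1 with 1 array left out. Over all probe sets the counts ran from 1 to 262 (95 as reported) for the plasmid in ZR75-1, 9 to 125 (62) in SKBR3-labelled cells, 12 to 221 (94) for the average, 0 to 67 (39) for the difference, 1357 to 2465 (2074) between lines on HSD17B14 arrays and 571 to 2775 (2516) on vector arrays. The cause of these moves was not tested.

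Directions turned only for values that had not passed. ITGB5 in ZR75-1 became -0.28 under the spike-in block. Under quantile normalization ITGAV became -0.055 in SKBR3-labelled cells and 0.018 between lines on vector arrays. Under the actin covariate ITGB5 became -0.044 in SKBR3-labelled cells, 1.72 for the difference of effects and -1.13 between lines on vector arrays, where ITGA5 became 0.18 and ITGAV 0.17. With 1 array left out, the log2 changes in ZR75-1 ran from -0.10 to 4.96 for ITGA6, -0.10 to 0.68 for ITGAV and -0.092 to 0.23 for ITGB5. In SKBR3-labelled cells they ran from -0.56 to 0.30 for ITGA2, -0.058 to 0.24 for ITGA6, -0.34 to 0.38 for ITGAV, -0.11 to 0.49 for ITGB4 and -0.18 to 2.35 for ITGB5. The averaged effect ran from -0.46 to 0.029 for ITGA5, -0.0054 to 2.53 for ITGA6, -0.041 to 0.35 for ITGAV and -0.058 to 1.21 for ITGB5. The difference of effects ran from -0.19 to 4.87 for ITGA6, -0.12 to 0.66 for ITGAV and -2.28 to 0.25 for ITGB5. Between lines, ITGAV ran from -0.12 to 0.66 on HSD17B14 arrays and from -0.36 to 0.35 on vector arrays, where ITGA5 ran from -0.94 to 0.035. ITGA6 in ZR75-1 rests on vector replicate 2: without it the change was -0.10, and without vector replicate 1 it was 4.96 (adjusted p = 0.00379).

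Same-numbered arrays did not deviate together (r = -0.0436 in ZR75-1 and -0.0351 in SKBR3-labelled cells), and with 2 numbers per group they share only a number. Under the replicate block ITGA3 in ZR75-1 had an adjusted p of 0.0133, ITGA6 of 0.0347 and ITGB4 of 0.0421. A group left with 1 array was assumed to vary like the others. The 60th percentile filter left no value for ITGB5.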
